A study of Mus musculus with 56 samples.

Results

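The efferent ductules are the thin coiled tubules that carry sperm and fluid out of the testis into the initial segment of the epididymis. Their transcriptome was compared between mice of 3 and of 21 months, in 8 of the 56 libraries of the series, chosen by the tissue and age that the labels give. All animals were male C57BL/6 mice, with no allele or treatment named beside the strain, and age is the only difference that the labels give between the groups. Each age had 4 mice and 4 libraries, and the ductules of both sides of a mouse were dissected in saline after fat and excess connective tissue had been removed. The other libraries of the same mice came from the testis, the initial segment, caput, corpus and cauda of the epididymis, and the vas deferens.

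The ductule epithelium is made of multiciliated cells, whose beating cilia stir the luminal fluid, and of non-ciliated cells, which take back most of the water, ions and protein that leave the testis. Sodium and proton exchange, aquaporin water channels and carbonic anhydrase serve the fluid uptake, megalin and its partners serve the uptake of protein, and the estrogen receptor Esr1 is needed to keep both working. Beneath the epithelium lie a thin smooth muscle coat, collagen-producing fibroblasts, vessels and resident macrophages and lymphocytes.

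Old ductules had less RNA of dividing cells, fibrillar collagens and fat, more RNA of B cells, macrophages and some T cell genes, and a mixed picture in the epithelium. Of 25944 genes tested, 1039 (4.00%) were called higher at 21 months and 774 (2.98%) lower. Lower calls took in 13 of 28 proliferation genes, 10 of 35 collagen genes and 6 of 15 fat cell genes, and higher calls 13 of 26 B cell and plasma cell genes, 11 of 31 T cell genes and 9 of 26 macrophage genes. Epithelial calls went both ways. Of 17 multiciliated cell regulators 1 was higher and 2 lower, and of 35 transport genes 2 and 2. Of 30 endocytic and lysosomal genes 4 were higher and 2 lower. Among them the cilia factor Foxj1 was higher, and the chloride channel gene Cftr and the uptake receptor gene Lrp2 were lower. Lrp2 was not called when transcript length was allowed for. Old replicates 2 and 3 also held transcripts of the initial segment, and the old libraries differed in ribosomal RNA, as described before the gene groups.

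Levels are given per library as counts per 1000000 (CPM), scaled by TMM (trimmed mean of M values), in the order of replicates 1 to 4. A gene was called higher or lower at 21 months when edgeR's quasi-likelihood test gave a Benjamini-Hochberg adjusted p under 0.05 over all genes tested. Counts of list members called are to be read against the 4.00 and 2.98% of all genes called higher and lower. With the library size alone as scaling the split was 405 higher and 4881 lower. Groups that did not overlap were more frequent, with all 21-month libraries above all 3-month libraries for 2047 genes (7.89%) and below them for 2579 (9.94%). The calls depended most on the young libraries. Without 3-month replicate 1, 2, 3 or 4 the higher calls numbered 187, 473, 231 and 199 and the lower calls 132, 339, 178 and 117, while leaving out 1 of the 21-month libraries gave 810 to 1205 higher and 483 to 952 lower calls. The genes called in each of these 8 fits numbered 152 higher and 106 lower. None of these was among the calls of the axoneme, duct factor, initial segment secretory, fibroblast, smooth muscle, endothelial and nerve and glia lists. The same held for the red blood cell, cytotoxic cell, MHC class II, chemokine, complement, senescence and mitochondrial lists described below. For called genes the highest adjusted p over the same 8 fits therefore follows the adjusted p, and log2 fold changes of 21 over 3 months carry the standard error of the fit (n = 4 libraries per age). In whole tissue, fewer cells of a type and less RNA per cell cannot be told apart.

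The young libraries had the transcripts of the labelled tissue. Esr1 stood at 838, 793, 820.1 and 891 CPM, at least 4 times its level in each of the other 6 regions, and so did 566 genes in all, among them the dynein heavy chain Dnah5, the cilia factor Foxj1 and the water channel Aqp1. Secretory genes of the initial segment summed to 30.96, 28.2, 27.5 and 18.8 CPM at 3 months. Germ cell genes, which would come from sperm or testis, summed to 96.1, 84.00, 366 and 95.3 CPM at 3 months and 161, 207, 173 and 251 CPM at 21 months, highest in 3-month replicate 3, and none of 23 was called by edgeR (at an unadjusted p under 0.05, 2 were higher and 1 lower). Of 15 Leydig, Sertoli and rete testis genes 0 were called (1 higher at an unadjusted p under 0.05).

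The 21-month libraries stood apart from the young ones and from each other. The 3-month libraries held 14627147 to 15631528 counts and the 21-month libraries 11442133, 15665064, 16121722 and 11125279. Gm42418, a gene annotated over a ribosomal RNA repeat, took 1.75, 3.29, 1.27 and 2.82% of the counts at 3 months and 22.2, 4.93, 14.9 and 18.5% at 21 months. Together with 6 other ribosomal and small RNA genes it took 5.62 to 8.58% of the young libraries and 35.2, 12.2, 24.2 and 32.1% of the old. Leaving the 7 genes out of the counts moved neither total of calls by over 1.5 times. Over all genes the median log2 fold change was -0.38 with only the library size as scaling and -0.04 with TMM, so changes below are relative to the latter.

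Old replicates 1 and 4 resembled each other, as did replicates 2 and 3. Correlations of log2 CPM were 0.983 and 0.989 within these pairs and 0.945 to 0.950 across them, against 0.982 to 0.993 among the young libraries. Transcript length moved with age as well: in 5 classes of exonic length from shortest to longest, the median log2 fold change was 0.19, 0.12, 0.03, -0.04 and -0.16. From the shortest to the longest class, median deviations from the gene means ran from 0.18 to -0.12 and 0.21 to -0.16 in old replicates 1 and 4. They ran from -0.04 to -0.01 and -0.03 to -0.04 in replicates 2 and 3, and upward in each young library. Fits without old replicates 2 and 3 thus keep the old libraries with most of this tilt. With an offset for exonic length in the fit, 804 of the 1039 higher and 511 of the 774 lower calls were made again. Among the genes named below, the calls of Slc9a3r1, Slc26a3, Lrp2, Hoxd9, Lcn6, Vcan, Cd34, Cnn1, Klrb1c, Cd79a, Ighg3, H2-Aa, Cfp, Igkv19-93, Lck, Tppp3 and Hexa were not. The labels name no batch, and the part of RNA quality in these patterns was not tested.

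**Figure D1:**
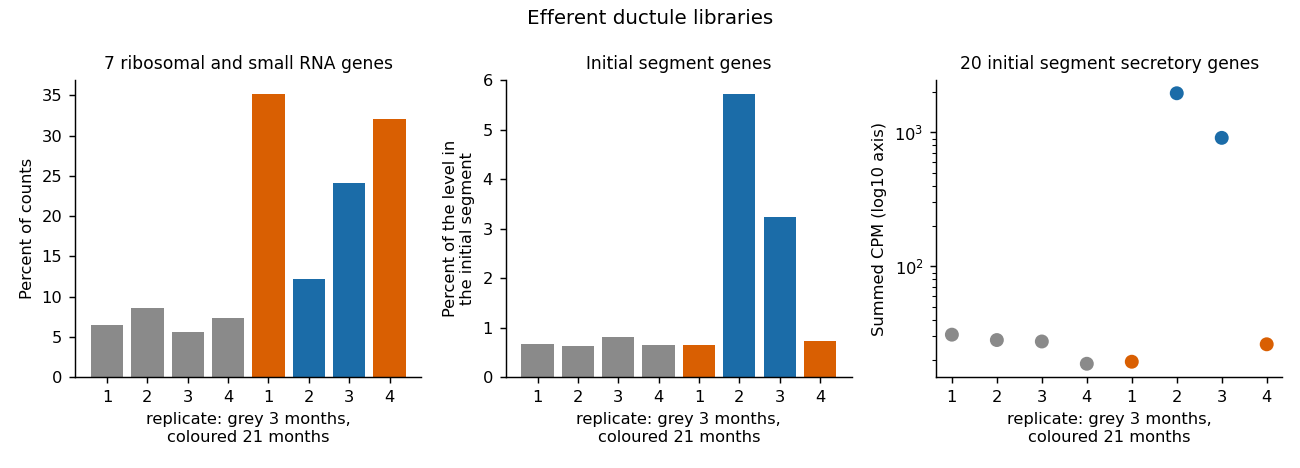
Bars show, for each efferent ductule library by replicate number, the percent of counts taken by 7 ribosomal and small RNA genes (left) and the summed level of 355 initial segment genes as a percent of that in the initial segment of the same age (middle), and points show the summed CPM of 20 initial segment secretory genes on a log10 axis (right). Grey marks 3 months, orange 21-month replicates 1 and 4 and blue 21-month replicates 2 and 3, which stand alone in the middle and right panels at 5.72 and 3.25% and at 1958 and 910.1 CPM.

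Old replicates 2 and 3 carried the secretory program of the neighbouring initial segment. A set of 355 genes at least 20 times higher in the initial segment than in the efferent ductules at 3 months summed to 0.664, 0.635, 0.806 and 0.648% of their initial segment level in the young ductules. At 21 months the same genes reached 0.661, 5.72, 3.25 and 0.731%, so that replicates 1 and 4 lay in the young range and replicates 2 and 3 above it. The choice of this set used the young efferent ductule libraries, so no test is made on it.

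Of 20 secretory genes of the initial segment, 13 were called higher and none lower. Lcn8, a lipocalin of the proximal epididymis, had 0.241, 0.121, 0 and 0 CPM at 3 months and 0.108, 447, 174 and 0.323 CPM at 21 months (edgeR, adjusted p = 0.0276, highest 0.103). The metalloprotease gene Adam28 read 0.181, 0, 0 and 0 CPM in young and 0.216, 152, 78.7 and 0 CPM in old ductules (edgeR, adjusted p = 0.0276, highest 0.127). Of the old libraries only replicates 2 and 3 were high. Lcn9, another lipocalin, went from 0.241, 0, 0 and 0 CPM to 0.324, 251, 115 and 0.215 CPM (edgeR, adjusted p = 0.0265, highest 0.122), and Cst11, a cystatin, from 0.120, 0, 0 and 0 CPM to 0, 35.1, 21.6 and 0 CPM (edgeR, adjusted p = 0.0309, highest 0.132). Rnase10, which the initial segment secretes onto sperm, did not overlap between the ages, at 0.181, 0.0607, 0.108 and 0.118 CPM in young against 0.432, 209, 97.5 and 0.323 CPM in old ductules (edgeR, adjusted p = 0.0261, highest 0.0979). Without replicates 2 and 3, none of these secretory genes was called higher and 2 were called lower.

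Genes of the caput and later epididymis followed the same pair of libraries in part. Of 20, 4 were called higher: the defensin Defb48, the lipocalin Lcn6, the prostaglandin synthase Ptgds and the proton pump subunit Atp6v0d2. Gpx5, a secreted glutathione peroxidase of the caput, had 0.432, 612, 154 and 0.108 CPM at 21 months and 9.09, 0.0607, 0.162 and 0 CPM at 3 months (edgeR, adjusted p = 0.0785). Crisp1, a sperm-binding secretory protein, was above the young range in replicates 2 and 3 and below it in replicates 1 and 4, with 18.2, 17.7, 20.4 and 10.3 CPM at 3 months and 1.62, 53.5, 117 and 4.73 CPM at 21 months. Its log2 fold change was 1.42 ± 0.89 over all libraries (edgeR, adjusted p = 0.351) and -2.37 without replicates 2 and 3 (adjusted p = 0.00106).

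In Atp6v0d2, as in Ptgds, all 4 old libraries exceeded all young ones. It encodes a subunit of the vacuolar proton pump and is typical of acid-secreting clear and narrow cells and of some macrophages. Its levels were 0.663, 0.303, 0.216 and 0.177 CPM at 3 months and 5.08, 6.47, 5.20 and 1.51 CPM at 21 months, a log2 fold change of 3.74 ± 0.51 (edgeR, adjusted p = 0.00638, highest 0.0332). The share of initial segment transcripts in each old library, multiplied by the 21-month level in the initial segment, comes to 0.622, 5.38, 3.05 and 0.688 CPM. That share is of summed CPM, and over the 355 single genes behind it the quartiles were 4.195 and 10.3% in replicate 2. In replicates 1 and 4 the share lay in the young range, so there the product holds a level that young ductules had too. The same limit applies to the shares given below for Foxj1, Npc2 and Klrb1c. Without replicates 2 and 3 the log2 fold change was 3.27 (edgeR, adjusted p = 0.00179).

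Part of the calls were of initial segment genes. Of the 1039 genes called higher, 110 were at least 4 times higher in the initial segment at 3 months, and of the 774 called lower, 11 were. Such genes numbered 882 among those tested, where 4.00 and 2.98% of all genes were called higher and lower. Without replicates 2 and 3, 53 of the 110 and 10 of the 11 were called again. The choice of these genes used the young libraries, so their counts only describe. Among the remaining 25062 genes tested, 929 were called higher and 763 lower, and 884 and 691 of these were called again without replicates 2 and 3. The fit with only replicates 1 and 4 as old libraries made more calls in all, 3327 higher (13.4%) and 3418 lower (13.7%) of 24912. With the initial segment share as a covariate, 966 of the 1039 and 733 of the 774 calls were made again. That fit also made more calls in all, 3007 higher and 3310 lower.

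Among ciliated cell genes Foxj1 was higher and 2 genes of the onset of ciliation were lower, while most axoneme genes were not called. Of 17 regulators of multiciliated cells, 1 was called higher (5.88%) and 2 lower (11.8%), against 4.00 and 2.98% of all genes. Foxj1, the transcription factor that switches on motile cilia genes, lies at chr11:116330704-116335399 (GRCm38) and had 526, 555, 463 and 501 CPM at 3 months and 767, 862, 1039 and 832 CPM at 21 months. All old libraries lay above all young ones, with a log2 fold change of 0.78 ± 0.12 (edgeR, adjusted p = 0.00881, highest 0.0421). The call was not made with the library size alone as scaling or in the fit of all 56 libraries. The initial segment share comes to at most 1.66 CPM in any of them.

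Among the regulators that act at the onset of ciliation, Foxn4 and Cdc20b were called lower. Foxn4, a forkhead factor of multiciliated cell formation, read 2.05, 0.971, 0.864 and 0.650 CPM in young ductules and 0.216, 0.370, 0.0702 and 0 CPM in old ones (log2 fold change -2.61 ± 0.67; edgeR, adjusted p = 0.042, highest 0.13). Cdc20b, which takes part in centriole amplification, read 1.20, 1.58, 1.51 and 2.01 CPM in young and 0.540, 0.431, 0.492 and 0.645 CPM in old ductules (log2 fold change -1.59 ± 0.31; edgeR, adjusted p = 0.0183, highest 0.0717), without overlap, and another gene lies on its opposite strand. Mcidas, the switch at the head of the program, had 1.87, 1.76, 1.57 and 1.65 CPM at 3 months and 0.756, 0.493, 0.702 and 0 CPM at 21 months. The groups did not overlap, but it was not called, at an adjusted p of 0.0629, with a log2 fold change of -1.76 ± 0.51. Ccno, a cyclin of centriole amplification, stood at 13.7, 12.8, 10.4 and 8.62 CPM in young and 7.89, 10.4, 8.43 and 7.10 CPM in old ductules, and its ages overlapped (edgeR, adjusted p = 0.188).

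Of 59 axoneme genes tested, 5 were called higher (8.47%) and none lower, and their median log2 fold change was 0.09, against -0.04 over all genes. Odf3b had 70.9, 85.1, 62.1 and 68.4 CPM at 3 months and 108, 119, 146 and 115 CPM at 21 months (log2 fold change 0.77 ± 0.13; edgeR, adjusted p = 0.0116, highest 0.0521). Zmynd10, needed to assemble the dynein arms, had 26.6, 32.7, 30.5 and 28.8 CPM in young and 45.05, 42.8, 37.2 and 59.7 CPM in old ductules (log2 fold change 0.64 ± 0.14; edgeR, adjusted p = 0.0293, highest 0.1). Tppp3, Ccdc40 and Dnaic2 were the others, by log2 fold changes of 0.47 ± 0.12, 0.46 ± 0.10 and 0.43 ± 0.10 and with highest adjusted p-values of 0.142, 0.0998 and 0.109 over the fits that left out 1 library. They were named after their values were seen, since they complete the count.

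In 2 further axoneme genes the old libraries parted. Tekt1, a protein of the microtubule doublets, had 49.6, 47.5, 54.8 and 50.4 CPM at 3 months and 92.7, 52.1, 47.4 and 88.9 CPM at 21 months, and Ccdc153 179, 213, 177 and 168 CPM in young and 341, 177, 182 and 345 CPM in old ductules. In both, replicates 1 and 4 were high and replicates 2 and 3 were at the young level. Without replicates 2 and 3, 32 of the 59 were called higher and 5 lower, against 13.4 and 13.7% of all genes, and the median log2 fold change was 0.30. Without replicates 1 and 4 the median was -0.07. The long dynein gene Dnah5 was at 579, 566, 600.1 and 619 CPM in young and 605, 523, 453 and 606 CPM in old ductules (edgeR, adjusted p = 0.585), and the intermediate chain gene Dnaic1 at 27.7, 26.2, 29.1 and 25.9 CPM in young and 32.6, 29.3, 29.4 and 30.97 CPM in old ductules (edgeR, adjusted p = 0.302).

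**Figure D2:**
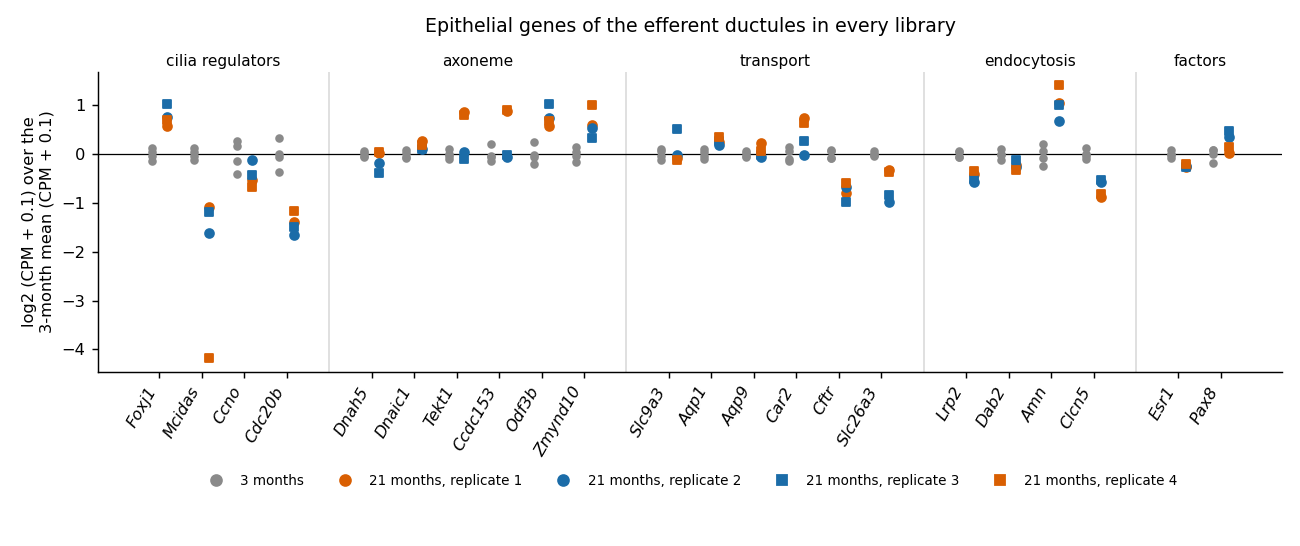
Each point is 1 library, as log2 of CPM plus 0.1 over the 3-month mean plus 0.1, for genes of the ciliated and absorptive epithelium on the horizontal axis. Grey points are 3 months, orange points 21-month replicates 1 and 4 and blue points 21-month replicates 2 and 3, and the orange and blue points of Foxj1, Cftr, Lrp2 and Clcn5 lie together on one side of the grey ones while those of Tekt1 and Ccdc153 part.

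Genes of the absorptive cells were called in either direction. The chloride channel gene Cftr and the endocytic genes Lrp2 and Clcn5 were lower, and the amino acid carrier gene Slc6a19 and the endocytic gene Amn higher. The water channels were not called over all libraries. Of 35 ion and water transport genes tested, 2 were called higher and 2 lower, with a median log2 fold change of 0.07. That is 5.71% each way, against 4.00 and 2.98% of all genes. Cftr (chr6:18170687-18322768), which carries chloride and bicarbonate, had 81.2, 73.5, 83.1 and 73.5 CPM at 3 months and 44.6, 49.1, 39.4 and 51.3 CPM at 21 months. No old library reached a young one, and the log2 fold change was -0.76 ± 0.11 (edgeR, adjusted p = 0.00717, highest 0.0375), with an antisense gene on the other strand. Slc26a3, a chloride and bicarbonate exchanger that works beside Cftr, had 167, 156, 157 and 161 CPM in young and 128, 80.8, 89.96 and 124 CPM in old ductules (log2 fold change -0.60 ± 0.15; edgeR, adjusted p = 0.0381, highest 0.114), lowest in replicates 2 and 3.

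Slc6a19, which takes up neutral amino acids with sodium, was higher in all old libraries, with 12.8, 13.8, 13.2 and 16.3 CPM at 3 months and 23.2, 25.4, 26.8 and 21.7 CPM at 21 months (log2 fold change 0.79 ± 0.12; edgeR, adjusted p = 0.00861, highest 0.0402). Slc9a3r1, a scaffold of transporters under the brush border, rose from 164, 179, 146 and 164 CPM to 221, 189, 238 and 263 CPM (log2 fold change 0.48 ± 0.12; edgeR, adjusted p = 0.0388, highest 0.119). Main transporters of fluid uptake were not called over all libraries. Slc9a3, the sodium and proton exchanger, had 213, 219.8, 198 and 189 CPM in young and 195, 203, 292 and 189 CPM in old ductules (edgeR, adjusted p = 0.709), with replicate 3 the highest. Aqp1 had 657, 630.0, 595 and 575 CPM at 3 months and 733, 702, 736 and 782 CPM at 21 months, without overlap, at a log2 fold change of 0.26 ± 0.09 (edgeR, adjusted p = 0.116). Without replicates 2 and 3 it was called higher, at 0.32 (adjusted p = 0.00858), as it was with DESeq2, while with the library size alone its direction turned without a call. The other water channels overlapped between the ages, Aqp9 at 64.2, 60.3, 66.2 and 61.6 CPM in young and 74.1, 60.3, 62.4 and 66.1 CPM in old ductules (edgeR, adjusted p = 0.754) and Aqp4 at 28.5, 27.1, 31.7 and 31.8 CPM in young and 40.4, 31.5, 27.3 and 40.4 CPM in old ductules (edgeR, adjusted p = 0.351). Car2, a carbonic anhydrase, had 89.9, 53.4, 65.2 and 83.98 CPM at 21 months against 56.3, 60.3, 48.9 and 50.8 CPM at 3 months (edgeR, adjusted p = 0.126), and Atp1b1, the beta subunit of the sodium pump, 681, 565, 652 and 708 CPM in old against 594, 615, 536 and 651 CPM in young ductules (edgeR, adjusted p = 0.532).

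Of 30 genes of the endocytic and lysosomal apparatus, 4 were called higher and 2 lower. Lrp2, which encodes megalin, the large uptake receptor of these cells, was the most abundant of them and had 2806, 2568, 2563 and 2732 CPM at 3 months and 2019, 1809, 1876 and 2097 CPM at 21 months. The groups did not overlap, and the log2 fold change was -0.45 ± 0.10 (edgeR, adjusted p = 0.0295, highest 0.107). With the length offset it was -0.22 and Lrp2 was not called (adjusted p = 0.24), nor was it in the fit of all 56 libraries. Clcn5, a chloride and proton exchanger of endosomes, had 42.8, 40.1, 41.9 and 46.5 CPM in young and 23.1, 28.8, 29.7 and 24.2 CPM in old ductules (log2 fold change -0.69 ± 0.11; edgeR, adjusted p = 0.0101, highest 0.0449). It was the only one of the 6 that was called in all 8 fits that left out 1 library. Amn, which anchors cubilin, was higher, with 4.58, 5.58, 4.05 and 5.08 CPM in young and 10.05, 7.82, 9.83 and 13.01 CPM in old ductules (log2 fold change 1.07 ± 0.19; edgeR, adjusted p = 0.0133, highest 0.0544). Cubn itself had 12.7, 11.7, 8.69 and 23.7 CPM in young and 8.32, 4.74, 5.06 and 16.8 CPM in old ductules (edgeR, adjusted p = 0.309), and the adaptor gene Dab2 1059.8, 1073, 984 and 1154 CPM in young and 922, 886, 978 and 859 CPM in old ductules (edgeR, adjusted p = 0.184).

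The other 3 called higher act in lysosomes. The protease gene Ctsd had 171, 169, 143 and 146 CPM at 3 months and 247, 229, 209 and 224 CPM at 21 months (log2 fold change 0.53 ± 0.10; edgeR, adjusted p = 0.0174, highest 0.0717). Npc2, a lysosomal cholesterol carrier that the epididymis also secretes, and Hexa, a lysosomal hexosaminidase, were called higher by 0.50 ± 0.13 and 0.42 ± 0.10 on the log2 scale, and were named after their values were seen. Leaving out 1 library raised their adjusted p as far as 0.13 and 0.105. The initial segment share comes to 1.85, 16.02, 9.08 and 2.05 CPM of Npc2.

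Of 24 steroid receptors and transcription factors of the duct, 1 was called. Esr1 had 695, 702, 701 and 725 CPM at 21 months, below every young library, at a log2 fold change of -0.24 ± 0.09 (edgeR, adjusted p = 0.13). It was called lower without replicates 2 and 3, at -0.22 (adjusted p = 0.0427), as it was with DESeq2, while with the length offset the value was -0.04 (adjusted p = 0.848). Pax8, a factor of the embryonic duct and kidney, had 309, 324, 269 and 323 CPM in young and 311, 390.2, 428 and 341 CPM in old ductules (edgeR, adjusted p = 0.207). Hoxd9 was the gene called higher, with 16.3, 13.5, 13.98 and 18.1 CPM at 3 months and 22.3, 32.4, 30.8 and 20.3 CPM at 21 months (log2 fold change 0.78 ± 0.17; edgeR, adjusted p = 0.0268, highest 0.0867), highest in replicates 2 and 3. Ghrhr, the receptor of growth hormone releasing hormone, had 27.8, 28.2, 27.4 and 22.97 CPM in young and 21.4, 27.2, 35.9 and 22.4 CPM in old ductules (edgeR, adjusted p = 0.979).

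Transcripts of the fibrillar collagens were lower in the old ductules. Of 35 genes of collagens and collagen enzymes, 10 were called lower (28.6%) and 2 higher. The median log2 fold change of the list was -0.19, or -0.13 with the length offset, and 13 of the 35 had a positive value. Col3a1 (chr1:45311538-45349706), the collagen of pliable tissue, had 907, 799, 916 and 682 CPM at 3 months and 301, 222, 222 and 210.3 CPM at 21 months (log2 fold change -1.79 ± 0.15; edgeR, adjusted p = 0.00317, highest 0.0196). Col1a1, the main collagen of tough fibres, had 1044, 891, 1030.1 and 789.9 CPM in young and 193, 392, 404 and 184 CPM in old ductules (log2 fold change -1.68 ± 0.26; edgeR, adjusted p = 0.00917, highest 0.0402). In both genes every old library was below every young one, and for Col1a1 replicates 1 and 4 were the lowest. Another gene lies on the strand of Col3a1 within its span. Col5a1, which starts fibril assembly, had 169.5, 172, 165 and 157 CPM in young and 76.6, 123, 119 and 66.99 CPM in old ductules (log2 fold change -0.78 ± 0.18; edgeR, adjusted p = 0.0329, highest 0.0945). The others called lower were Col1a2, Col5a2, Col6a1, Col6a2, Col6a3, Col15a1 and the basement membrane gene Col4a3. Log2 fold changes of the 10 ran from -0.47 to -1.79, all 10 were called without replicates 2 and 3 too, and 6 of them were called in each fit that left out 1 library. The 35 genes are long, with a median exonic length of 7013 bases, and 9 of the 10 were also called lower with the length offset.

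Col8a2 and Col16a1 were the collagens called higher. Col16a1 had 129.6, 129, 123 and 125 CPM at 3 months and 146, 161, 185 and 167 CPM at 21 months (log2 fold change 0.38 ± 0.10; edgeR, adjusted p = 0.0428, highest 0.13), and Col8a2 126, 125, 121 and 115 CPM in young and 139, 165, 192 and 173 CPM in old ductules (log2 fold change 0.46 ± 0.11; edgeR, adjusted p = 0.0348, highest 0.12). In both the ages did not overlap.

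Elastic fibre genes were lower in part, with 4 of 21 called lower and 1 higher. Lox, the enzyme that crosslinks collagen and elastin, had 32.3, 28.95, 25.7 and 34.8 CPM at 3 months and 11.7, 14.3, 16.6 and 12.4 CPM at 21 months (log2 fold change -1.14 ± 0.14; edgeR, adjusted p = 0.00496, highest 0.0274). Fbn2, a fibrillin of young matrix, had 8.43, 9.35, 9.501 and 7.74 CPM in young and 2.27, 2.96, 5.90 and 3.33 CPM in old ductules (log2 fold change -1.26 ± 0.26; edgeR, adjusted p = 0.0217, highest 0.0681). Eln, which encodes elastin, had 139, 132, 105 and 119 CPM in young and 41.6, 81.4, 94.7 and 40.97 CPM in old ductules, again with replicates 1 and 4 lowest and no overlap between the ages. Its log2 fold change was -0.93 ± 0.26 with an adjusted p of 0.0542, and -1.56 without replicates 2 and 3 (adjusted p = 1.35e-05), and another gene lies on its opposite strand. Fbln5 stood at 28.5, 27.3, 32.1 and 30.2 CPM in young and 24.6, 26.98, 22.1 and 23.7 CPM in old ductules (edgeR, adjusted p = 0.131). Efemp2, which guides Lox to elastin, was the one called higher, with 20.5, 21.00, 19.2 and 20.4 CPM in young and 38.5, 28.3, 23.9 and 41.5 CPM in old ductules (log2 fold change 0.70 ± 0.16; edgeR, adjusted p = 0.0328, highest 0.104).

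Among 32 other matrix proteins and proteases, 8 were called lower and 2 higher. Sparc, a collagen-binding protein of matrix assembly, had 836, 925, 795 and 779 CPM at 3 months and 504, 428, 351 and 382 CPM at 21 months (log2 fold change -1.001 ± 0.13; edgeR, adjusted p = 0.00502, highest 0.0279). The proteoglycan gene Vcan had 62.6, 52.6, 60.9 and 58.8 CPM in young and 44.7, 28.2, 23.5 and 39.9 CPM in old ductules (log2 fold change -0.79 ± 0.18; edgeR, adjusted p = 0.0307, highest 0.0979). All 8 were also called lower without replicates 2 and 3, 5 of them with the length offset and 1 in each fit that left out 1 library. Fn1, fibronectin, was not called at 93.96, 125, 78.8 and 92.4 CPM in young and 71.2, 131, 80.6 and 31.3 CPM in old ductules (edgeR, adjusted p = 0.603), with the old libraries spread on both sides of the young.

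The 2 called higher in that list encode proteases. Mmp12, the macrophage elastase, had 1.33, 0.425, 3.67 and 0.591 CPM at 3 months and 40.1, 5.11, 8.29 and 12.2 CPM at 21 months (log2 fold change 3.40 ± 0.76; edgeR, adjusted p = 0.0275, highest 0.0995), and Mmp9 had 11.1, 9.35, 6.96 and 8.39 CPM in young and 16.4, 18.9, 19.03 and 13.8 CPM in old ductules (log2 fold change 0.93 ± 0.17; edgeR, adjusted p = 0.015, highest 0.0636). The protease inhibitor gene Timp1 was at 3.13, 2.25, 1.40 and 3.01 CPM in young and 5.73, 3.08, 2.04 and 5.81 CPM in old ductules (edgeR, adjusted p = 0.241).

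Of 15 fibroblast genes 1 was called, and the median log2 fold change was -0.31. That was Cd34, a surface protein of stromal and vessel cells, lower from 109, 98.9, 98.1 and 99.9 CPM to 85.2, 69.8, 63.3 and 69.8 CPM (log2 fold change -0.50 ± 0.11; edgeR, adjusted p = 0.0261, highest 0.0891). Pdgfra, the receptor that marks fibroblasts, had 191, 199.6, 209.9 and 215 CPM in young and 170.5, 191, 154 and 231 CPM in old ductules (edgeR, adjusted p = 0.576). Dpt stood at 31.7, 34.9, 31.7 and 34.8 CPM in young and 41.1, 32.6, 16.6 and 16.9 CPM in old ductules (edgeR, adjusted p = 0.49), and Pi16 at 33.7, 37.7, 29.5 and 31.9 CPM in young and 22.8, 39.4, 25.9 and 35.2 CPM in old ductules (edgeR, adjusted p = 0.746). The summed level of the 15 fibroblast genes was 2838, 3025, 2567 and 3046 CPM at 3 months and 2712, 3113, 2859 and 3029 CPM at 21 months, so the ages overlapped. Igf1, a growth factor that stromal cells secrete, was lower, with 262, 227, 261 and 253 CPM in young and 152, 109, 125 and 135 CPM in old ductules (log2 fold change -0.94 ± 0.12; edgeR, adjusted p = 0.00496, highest 0.0274).

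In smooth muscle 2 of 18 genes were called higher and 1 lower. Des, the muscle intermediate filament, had 57.9, 56.1, 50.8 and 50.3 CPM at 3 months and 91.8, 69.9, 75.1 and 101 CPM at 21 months (log2 fold change 0.65 ± 0.13; edgeR, adjusted p = 0.0183, highest 0.0754), and Cnn1, calponin, 27.6, 28.3, 27.9 and 27.8 CPM in young and 38.2, 33.3, 34.3 and 39.03 CPM in old ductules (log2 fold change 0.38 ± 0.09; edgeR, adjusted p = 0.0393, highest 0.116). Myh11, the smooth muscle myosin, overlapped at 214, 239, 227 and 227 CPM in young and 215, 223, 224 and 206 CPM in old ductules (edgeR, adjusted p = 0.705), and Acta2 was highest in replicates 1 and 4, at 444, 322, 264 and 445 CPM against 291, 272, 237 and 278 CPM (edgeR, adjusted p = 0.125).

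Of 23 endothelial genes 1 was called higher and 1 lower (4.35% each), near the 4.00 and 2.98% of all genes. Esm1, made by sprouting vessels, had 0.301, 0.486, 0.486 and 0.236 CPM in young and 1.30, 1.05, 1.26 and 1.08 CPM in old ductules (log2 fold change 1.61 ± 0.36; edgeR, adjusted p = 0.0282, highest 0.0932). The vessel ligand gene Apln had 1.08, 1.40, 1.19 and 1.12 CPM in young and 0.432, 0.554, 0.492 and 0.323 CPM in old ductules (log2 fold change -1.36 ± 0.32; edgeR, adjusted p = 0.0328, highest 0.0925). The junction genes Pecam1, at 44.6, 44.7, 45.8 and 44.8 CPM in young and 44.1, 49.7, 38.5 and 28.1 CPM in old ductules (edgeR, adjusted p = 0.543), and Cdh5, at 45.2, 54.99, 43.5 and 53.9 CPM in young and 44.6, 66.9, 56.7 and 48.3 CPM in old ductules (edgeR, adjusted p = 0.595), were not called. Of 12 nerve and glia genes 1 was called higher and none lower. None of 13 skeletal muscle genes was called by edgeR (1 higher at an unadjusted p under 0.05), and the defining Acta1 and Ckm were at or under 3.14 CPM in every library.

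Of 15 fat cell genes, 6 were called lower (40.0%), 2 of them in each fit that left out 1 library, and none higher, with a median log2 fold change of -0.91, and fat had been trimmed off during dissection. Retn, the hormone resistin, had 34.8, 38.5, 22.7 and 50.2 CPM at 3 months and 5.73, 8.38, 5.06 and 6.56 CPM at 21 months (log2 fold change -2.50 ± 0.25; edgeR, adjusted p = 0.00317, highest 0.0231). Lpl, which releases fatty acids from lipoproteins, had 231, 311, 217 and 291 CPM in young and 109, 168, 70.2 and 57.96 CPM in old ductules (log2 fold change -1.37 ± 0.29; edgeR, adjusted p = 0.0239, highest 0.0833). Fabp4, Pparg, Cfd and Car3 were the others, and all 6 were also called lower without replicates 2 and 3. Adipoq, the hormone adiponectin, varied among the old libraries at 43.1, 34.4, 12.8 and 16.02 CPM against 37.7, 50.99, 35.6 and 64.9 CPM (edgeR, adjusted p = 0.173), and so did the lipid droplet gene Plin1 at 42.1, 73.9, 51.8 and 19.4 CPM in old against 81.2, 112, 56.5 and 94.5 CPM in young ductules (edgeR, adjusted p = 0.138). Summed over the list the levels were 1732, 2317, 1451 and 2389.9 CPM at 3 months and 1102, 1344, 846 and 584 CPM at 21 months. How much fat tissue each dissection kept was not tested.

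**Figure D3:**
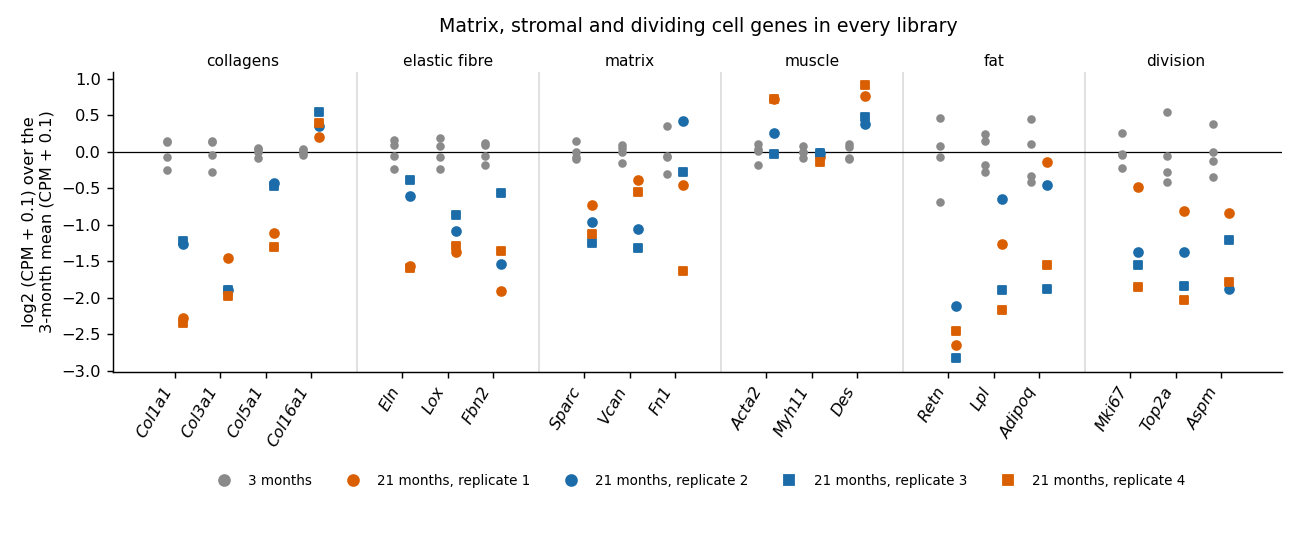
Each point is 1 library, as log2 of CPM plus 0.1 over the 3-month mean plus 0.1, for matrix, muscle, fat and cell division genes, with the colours of the epithelial plot. All old libraries lie below the young ones for Col1a1, Col3a1, Lox, Sparc, Retn, Mki67, Top2a and Aspm, above them for Col16a1 and Des, and overlap them for Fn1 and Myh11.

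Genes of dividing cells had the greatest share of lower calls of the 34 gene lists. Of 28 proliferation genes tested, 13 were called lower (46.4%) and none higher, with a median log2 fold change of -1.08. Mki67, a marker of cycling cells, had 16.98, 17.1, 20.8 and 14.9 CPM at 3 months and 12.4, 6.65, 5.90 and 4.73 CPM at 21 months (log2 fold change -1.24 ± 0.26; edgeR, adjusted p = 0.0222, highest 0.0725). Top2a, the topoisomerase of dividing cells, had 9.21, 7.89, 14.04 and 7.15 CPM in young and 5.40, 3.63, 2.60 and 2.26 CPM in old ductules (log2 fold change -1.47 ± 0.30; edgeR, adjusted p = 0.0205, highest 0.0625), and the spindle gene Aspm 3.98, 3.40, 5.67 and 4.31 CPM in young and 2.38, 1.11, 1.83 and 1.18 CPM in old ductules (log2 fold change -1.43 ± 0.29; edgeR, adjusted p = 0.0193, highest 0.0688). The ages did not overlap in these 3 genes, and replicate 1 was the highest of the old libraries for Mki67, Top2a and Aspm.

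The summed level of the 28 genes was 200.1, 181, 239.6 and 199 CPM at 3 months and 152, 116, 116 and 128 CPM at 21 months. The highest young value came from replicate 3, the library with the most germ cell transcripts, whose part in these values was not tested. Of the 13 calls 1 was made in each fit that left out 1 library. Mki67 lost its call whichever young library was left out, and Top2a without young replicate 1, 3 or 4, with adjusted p-values of 0.0725 and 0.0625 without replicate 3. Their log2 fold changes over these 8 fits ran from -1.58 to -1.09 for Mki67 and from -1.74 to -1.22 for Top2a. These genes are long too, with a median exonic length of 5193.5 bases, and 7 of the 13 were also called lower with the length offset. Without old replicates 2 and 3, 10 of the 13 were called lower.

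The promoters of these genes are shown because they moved together, with matches to 2 elements known from cell cycle promoters, the CCAAT box and the homology region with core TTTGAA. The reference sequences (RefSeq, GRCm38.p6) are the 250 bases before the start site, 5' to 3' on the gene's strand, with CCAAT and TTTGAA on either strand in capitals: Mki67 at chr7:135716380-135716629 (minus strand), Top2a at chr11:99024190-99024439 (minus strand) and Aspm at chr1:139454523-139454772 (plus strand).
Mki67: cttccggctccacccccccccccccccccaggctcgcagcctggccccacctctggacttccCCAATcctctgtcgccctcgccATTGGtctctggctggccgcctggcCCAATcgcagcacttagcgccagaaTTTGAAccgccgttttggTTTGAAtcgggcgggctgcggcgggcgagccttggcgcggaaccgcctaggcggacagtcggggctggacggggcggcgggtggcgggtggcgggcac
Top2a: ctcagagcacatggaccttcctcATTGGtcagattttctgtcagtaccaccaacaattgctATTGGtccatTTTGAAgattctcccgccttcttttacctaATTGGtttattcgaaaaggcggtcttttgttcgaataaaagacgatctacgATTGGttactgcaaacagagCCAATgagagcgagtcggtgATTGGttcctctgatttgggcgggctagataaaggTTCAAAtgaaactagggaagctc
Aspm: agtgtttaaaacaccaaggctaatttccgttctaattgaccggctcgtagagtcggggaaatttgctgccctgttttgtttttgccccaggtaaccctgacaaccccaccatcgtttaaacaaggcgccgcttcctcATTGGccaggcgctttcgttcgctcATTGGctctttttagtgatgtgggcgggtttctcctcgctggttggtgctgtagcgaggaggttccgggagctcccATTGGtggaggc
In these windows Mki67 held 3 CCAAT and 2 TTTGAA, Top2a 6 and 2, and Aspm 3 and 0. Of the 28 proliferation genes 24 had a promoter in the table, and 20 of these (83.3%) held CCAAT and 8 (33.3%) TTTGAA, against 35.2 and 11.9% of the 14894 promoters of genes tested and 34.5 and 16.3% of all 27025. Of the 13 genes called lower, 11 had a promoter, 10 of them with CCAAT and 4 with TTTGAA. A match describes letters only.

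Higher calls were frequent among lymphocyte and macrophage genes. Of 31 T cell genes tested, 11 were called higher (35.5%) and none lower, and 10 of the 11 were called without replicates 2 and 3 too. Calls were made again for 6 of the 11 with the length offset and for 1 in each fit that left out 1 library. Cd4, the coreceptor of helper T cells, had 1.51, 1.09, 1.35 and 1.54 CPM at 3 months and 5.29, 4.31, 4.71 and 3.55 CPM at 21 months (log2 fold change 1.70 ± 0.22; edgeR, adjusted p = 0.00537, highest 0.0274). Cd3e, a chain of the T cell receptor complex, had 1.39, 1.27, 1.35 and 0.886 CPM in young and 3.35, 4.005, 3.93 and 1.94 CPM in old ductules (log2 fold change 1.44 ± 0.29; edgeR, adjusted p = 0.0185, highest 0.0715). Old libraries were above young ones throughout for both. Trbc2, the receptor's constant beta chain, had 0.181, 0.121, 0.324 and 0.236 CPM in young and 4.43, 2.09, 0.562 and 0.860 CPM in old ductules (log2 fold change 3.12 ± 0.67; edgeR, adjusted p = 0.025, highest 0.0872), and the homing receptor gene Ccr7 0.241, 0.121, 0.162 and 0 CPM in young and 1.51, 1.11, 0.843 and 0.968 CPM in old ductules (log2 fold change 2.99 ± 0.59; edgeR, adjusted p = 0.0183, highest 0.0514). Cd8a, the coreceptor of cytotoxic T cells, was at 0.301, 0.243, 0.324 and 0.295 CPM in young and 0.432, 0.554, 0.351 and 1.40 CPM in old ductules and was not called (edgeR, adjusted p = 0.194). Lck, a kinase of T cell receptor signalling that overlaps a microRNA gene, had 2.71, 2.91, 2.16 and 2.60 CPM in young and 3.56, 4.25, 4.49 and 6.34 CPM in old ductules (log2 fold change 0.84 ± 0.22; edgeR, adjusted p = 0.0478, highest 0.131). Ctla4, an inhibitory receptor, had no count in any young library, which allows up to 3 counts in each, and 0.864, 0.123, 0.211 and 0.108 CPM in the old (edgeR, adjusted p = 0.0627). Ptprc, carried by all white blood cells, was not called, at 17.8, 16.6, 17.2 and 14.3 CPM in young and 34.5, 19.2, 23.8 and 15.9 CPM in old ductules (edgeR, adjusted p = 0.167).

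Cytotoxic and natural killer genes gave 2 of 13 called higher. Ccl5, a chemokine of these cells, had 0.181, 0.364, 0.270 and 0.295 CPM in young and 2.38, 1.91, 1.33 and 0.323 CPM in old ductules (log2 fold change 2.40 ± 0.54; edgeR, adjusted p = 0.0286, highest 0.0952), with replicate 4 in the young range. Klrb1c had 0.181, 0.425, 0.324 and 0.236 CPM at 3 months and 0.216, 12.6, 9.48 and 0.108 CPM at 21 months (edgeR, adjusted p = 0.0485, highest 0.147). It was high only in replicates 2 and 3. The initial segment share of the old libraries comes to 1.94, 16.8, 9.52 and 2.14 CPM, more than was measured in each of them. Nkg7, a granule gene, was at 0.422, 0.303, 0.270 and 0.0590 CPM in young and 0.432, 1.05, 0.562 and 0.108 CPM in old ductules (edgeR, adjusted p = 0.344).

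B cell and plasma cell genes had the highest median log2 fold change of the immune lists, at 2.37. Of 26, 13 were called higher (50.0%) and none lower, 12 of the 13 were called without replicates 2 and 3 too, 11 with the length offset and 5 in each fit that left out 1 library, and the summed level was 169.8, 182, 153 and 152 CPM at 3 months and 1038, 722, 661 and 359 CPM at 21 months. Ighm, the heavy chain of IgM, had 27.6, 26.4, 19.3 and 17.9 CPM in young and 437, 339, 289 and 112 CPM in old ductules (log2 fold change 3.69 ± 0.36; edgeR, adjusted p = 0.00317, highest 0.0231). Jchain, which joins secreted IgM and IgA, had 1.33, 2.73, 0.810 and 1.54 CPM in young and 33.3, 11.5, 14.2 and 7.31 CPM in old ductules (log2 fold change 3.37 ± 0.50; edgeR, adjusted p = 0.00786, highest 0.0407). Replicate 1 was highest and replicate 4 lowest of the old libraries, and all were above the young. Ighg2c, an IgG heavy chain, was nearly absent at 3 months, with 0.181, 0, 0.0540 and 0.0590 CPM, and had 15.02, 7.39, 19.4 and 5.48 CPM at 21 months (edgeR, adjusted p = 0.00317, highest 0.0196). Cd79a, a part of the B cell receptor, overlapped in 1 old library, with 0.241, 0.303, 0.486 and 0 CPM in young and 3.56, 2.96, 1.62 and 0.323 CPM in old ductules (log2 fold change 2.99 ± 0.75; edgeR, adjusted p = 0.0407, highest 0.115). Ighg3 did so too, at 0.663, 0.121, 0.0540 and 0 CPM in young and 8.21, 0.431, 5.55 and 0.860 CPM in old ductules (edgeR, adjusted p = 0.0438, highest 0.132).

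Of 96 immunoglobulin genes tested, 27 were called higher and none lower. Single variable segments were high in 1 or 2 old libraries: Igkv19-93 had 0.540, 26.9, 0.281 and 0.215 CPM and Ighv1-9 2.48, 16.7, 0.983 and 0.968 CPM, both highest in replicate 2. The light chain segment Igkv3-2 had 10.05, 1.17, 14.5 and 5.48 CPM against 0.0602, 0, 0 and 0 CPM in the young (edgeR, adjusted p = 0.00496, highest 0.0402). Igkv8-28 reached 7.13, 0.246, 3.16 and 0.323 CPM and Igkv1-117 5.73, 0.863, 3.02 and 0.753 CPM from no count at 3 months. Iglc3 read 4.97, 0.863, 16.01 and 0.430 CPM, Igkv6-15 3.24, 0.863, 0.702 and 0.430 CPM and Ighv1-80 2.38, 0.924, 0.211 and 0.538 CPM, each from at most 0.0607 CPM in any young library. Related segments share sequence, so the counts of single segments are uncertain.

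Among 26 macrophage genes 9 were called higher and 1 lower, and all 10 were called without replicates 2 and 3 too. Of the 9, 5 were called in each fit that left out 1 library. Gpnmb, a lysosomal glycoprotein of lipid-laden macrophages, had 9.76, 7.28, 9.83 and 9.03 CPM at 3 months and 54.9, 39.9, 67.7 and 27.96 CPM at 21 months (log2 fold change 2.41 ± 0.25; edgeR, adjusted p = 0.00317, highest 0.0231). C1qc, a chain of complement C1q that tissue macrophages make, had 46.4, 43.5, 35.3 and 39.9 CPM in young and 121, 78.7, 91.3 and 109 CPM in old ductules (log2 fold change 1.28 ± 0.15; edgeR, adjusted p = 0.00422, highest 0.0246). The lysosomal marker Cd68 had 11.6, 12.3, 9.56 and 10.6 CPM in young and 35.9, 18.1, 23.9 and 22.3 CPM in old ductules (log2 fold change 1.18 ± 0.20; edgeR, adjusted p = 0.011, highest 0.0498). None of the 3 overlapped between the ages. Adgre1, the F4/80 antigen, was at 13.6, 10.9, 14.3 and 11.6 CPM in young and 18.8, 15.7, 17.7 and 17.8 CPM in old ductules without overlap but was not called (edgeR, adjusted p = 0.0508), and Vsig4 was at 0.903, 0.607, 0.378 and 0.709 CPM in young and 3.46, 2.71, 0.562 and 2.69 CPM in old ductules (edgeR, adjusted p = 0.0533). Mertk, a receptor for dying cells, was lower at 83.1, 88.6, 88.2 and 86.7 CPM in young and 61.7, 69.6, 63.9 and 58.1 CPM in old ductules (log2 fold change -0.45 ± 0.09; edgeR, adjusted p = 0.0196, highest 0.0713).

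Of the 11 genes tested in the list of Cd209 lectins and Pla2g2d, 6 were called higher, and 3 of them in each fit that left out 1 library. Cd209f had 1.69, 3.16, 1.46 and 2.07 CPM at 3 months and 14.5, 8.26, 16.01 and 8.71 CPM at 21 months (log2 fold change 2.50 ± 0.30; edgeR, adjusted p = 0.00481, highest 0.0274), and Cd209g had 1.14, 1.58, 0.432 and 0.827 CPM in young and 8.53, 4.13, 9.20 and 4.30 CPM in old ductules (log2 fold change 2.72 ± 0.41; edgeR, adjusted p = 0.00818, highest 0.0412). Cd209b read 0.663, 0.546, 0.162 and 0.768 CPM in young and 6.27, 3.08, 3.09 and 3.33 CPM in old ductules (log2 fold change 2.86 ± 0.42; edgeR, adjusted p = 0.00786, highest 0.0362). All 3 were free of overlap, though as close relatives they may share reads. Ccl8, a monocyte chemokine, had 3.73, 4.49, 3.45 and 2.66 CPM in young and 23.9, 9.55, 7.23 and 9.89 CPM in old ductules (log2 fold change 1.80 ± 0.36; edgeR, adjusted p = 0.0182, highest 0.0747). Pla2g2d, a secreted phospholipase of resident myeloid cells, had 4.28, 6.74, 4.26 and 2.01 CPM in young and 19.2, 6.41, 14.5 and 13.1 CPM in old ductules (log2 fold change 1.61 ± 0.38; edgeR, adjusted p = 0.0313, highest 0.0943), with replicate 2 inside the young range. The study chose these genes on these and related libraries, so their direction here is not independent evidence.

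Antigen presentation genes were higher in part. Of 19 dendritic cell and MHC class II genes, 6 were called higher, none of them in each fit that left out 1 library. Cd74, the invariant chain, had 386, 478, 331 and 421 CPM at 3 months and 678, 575, 549.5 and 664 CPM at 21 months (log2 fold change 0.61 ± 0.13; edgeR, adjusted p = 0.0251, highest 0.0861). H2-Eb1 had 151, 155, 136 and 139 CPM in young and 334, 227, 184 and 301 CPM in old ductules (log2 fold change 0.85 ± 0.17; edgeR, adjusted p = 0.0192, highest 0.0774), and H2-Aa 190.3, 202, 171 and 177 CPM in young and 407, 238, 219 and 387 CPM in old ductules (log2 fold change 0.76 ± 0.20; edgeR, adjusted p = 0.0445, highest 0.136). Itgax, the integrin CD11c, had 2.95, 2.67, 2.48 and 1.95 CPM in young and 12.7, 7.70, 6.53 and 3.55 CPM in old ductules (log2 fold change 1.60 ± 0.33; edgeR, adjusted p = 0.0226, highest 0.0884). Ciita, the master regulator of class II genes, overlapped at 34.3, 35.4, 32.8 and 30.2 CPM in young and 29.1, 39.6, 40.4 and 24.8 CPM in old ductules (edgeR, adjusted p = 0.958).

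Among 16 genes of MHC class I and antigen processing 6 were called higher. The immunoproteasome genes Psmb8, at 11.7, 12.7, 10.4 and 11.5 CPM in young and 31.9, 15.8, 17.7 and 26.5 CPM in old ductules (log2 fold change 0.98 ± 0.21; edgeR, adjusted p = 0.0249, highest 0.0875), and Psmb10, at 11.3, 11.3, 10.7 and 9.68 CPM in young and 22.6, 15.2, 15.8 and 24.5 CPM in old ductules (log2 fold change 0.85 ± 0.17; edgeR, adjusted p = 0.0197, highest 0.079), were highest in replicates 1 and 4. H2-K1 was at 626, 664, 568 and 597 CPM in young and 822, 720.5, 745 and 985 CPM in old ductules (edgeR, adjusted p = 0.0643), and B2m at 441, 561, 388 and 457 CPM in young and 691, 402, 373 and 614 CPM in old ductules (edgeR, adjusted p = 0.65). Reads of class I genes can be split between near copies.

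Of 29 interferon response genes 2 were called higher (6.90%, against 4.00% of all genes). Bst2, a surface tether of viruses, had 7.83, 9.77, 8.21 and 7.20 CPM at 3 months and 27.98, 17.7, 19.9 and 30.97 CPM at 21 months (log2 fold change 1.54 ± 0.19; edgeR, adjusted p = 0.00496, highest 0.0276), and Irf7 26.02, 24.3, 20.7 and 21.7 CPM in young and 36.9, 28.5, 34.5 and 32.04 CPM in old ductules (log2 fold change 0.51 ± 0.12; edgeR, adjusted p = 0.0313, highest 0.109). Ifit3 was high in replicate 1 alone, at 11.7, 3.20, 4.64 and 3.44 CPM against 2.95, 3.22, 3.51 and 2.72 CPM (edgeR, adjusted p = 0.189). Of 23 chemokines and cytokines, a list without Ccl5 and Ccl8, which are given above, only Cxcl13, which draws B cells, was called, with 1.75, 1.70, 1.13 and 2.66 CPM in young and 17.8, 5.91, 21.98 and 2.90 CPM in old ductules (log2 fold change 2.75 ± 0.57; edgeR, adjusted p = 0.0211, highest 0.0732). Ccl2 and Tnf stayed at or under 1.62 CPM in every library and were not called.

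Of 8 granulocyte and mast cell genes tested, 4 were called higher. Their summed level did not rise, at 105, 110, 83.1 and 103 CPM at 3 months and 82.7, 106, 98.0 and 79.7 CPM at 21 months. Tpsb2, tryptase, had 1.81, 2.003, 2.32 and 1.42 CPM at 3 months and 11.8, 7.76, 7.73 and 5.38 CPM at 21 months (log2 fold change 2.10 ± 0.26; edgeR, adjusted p = 0.00496, highest 0.0274), and Cma1, chymase, 1.51, 1.70, 2.11 and 1.06 CPM in young and 5.83, 3.33, 4.21 and 3.98 CPM in old ductules (log2 fold change 1.43 ± 0.27; edgeR, adjusted p = 0.0162, highest 0.0597). Cpa3, another mast cell protease, was at 1.51, 1.58, 1.13 and 1.12 CPM in young and 2.59, 0.986, 0.492 and 0.860 CPM in old ductules (edgeR, adjusted p = 0.863), and S100a8 at or under 0.421 CPM. Of 16 complement genes 1 was called higher and 1 lower (6.25% each, against 4.00 and 2.98% of all genes). Cfp, properdin, was higher at 12.2, 12.7, 11.7 and 11.6 CPM in young and 21.8, 17.9, 22.7 and 12.9 CPM in old ductules (log2 fold change 0.64 ± 0.17; edgeR, adjusted p = 0.0465, highest 0.137). C6, a part of the membrane attack complex, was lower at 7.77, 8.19, 5.56 and 12.2 CPM in young and 2.92, 4.005, 2.81 and 2.15 CPM in old ductules (log2 fold change -1.48 ± 0.27; edgeR, adjusted p = 0.0149, highest 0.052). C3 had 574, 728, 415 and 676 CPM in young and 1478, 813, 1108 and 561 CPM in old ductules (edgeR, adjusted p = 0.131), and C4b 262, 278, 198 and 273 CPM in young and 377, 363, 382 and 286 CPM in old ductules (edgeR, adjusted p = 0.0622).

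Red blood cell genes were higher in the old ductules too, in another order of libraries than the B cell genes. Their sum over 8 genes was 19.8, 25.9, 29.9 and 28.8 CPM at 3 months and 83.9, 43.3, 47.2 and 137 CPM at 21 months, all old libraries being above the young, and 4 of the 8 were called higher. Hbb-bs, a beta globin, had 12.5, 14.4, 16.6 and 18.4 CPM in young and 48.3, 23.7, 24.4 and 82.2 CPM in old ductules (log2 fold change 1.52 ± 0.36; edgeR, adjusted p = 0.0333, highest 0.105), and Hba-a1, an alpha globin, 3.37, 5.95, 5.67 and 5.31 CPM in young and 18.3, 10.2, 13.8 and 30.97 CPM in old ductules (log2 fold change 1.84 ± 0.32; edgeR, adjusted p = 0.0133, highest 0.0538). Replicate 4 had the most globin and the fewest B cell transcripts of the old libraries. The part of residual blood in the immune values was not tested.

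**Figure D4:**
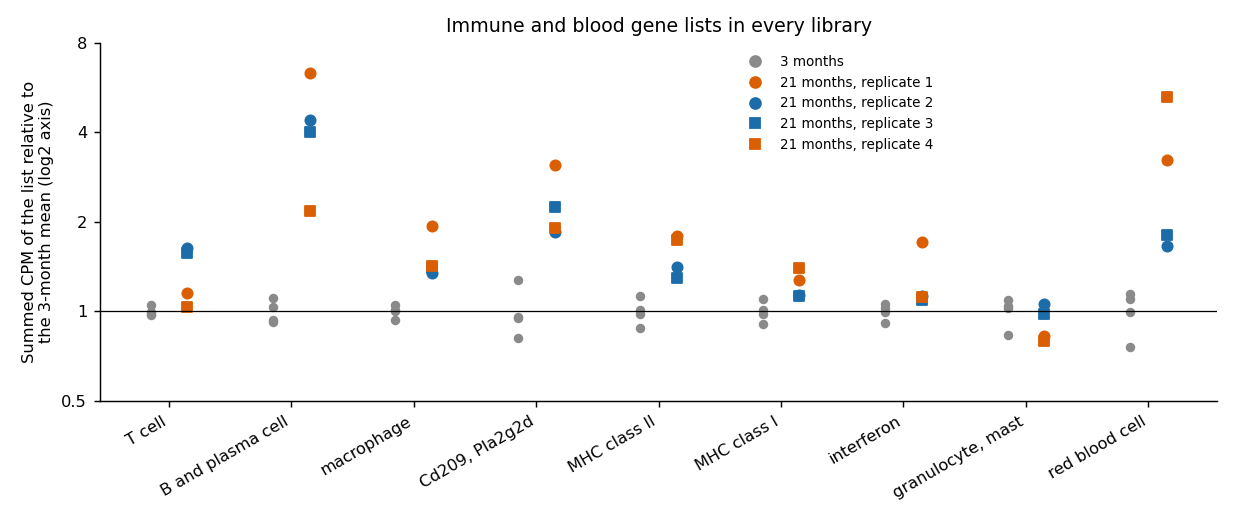
Each point is 1 library, as the summed CPM of a gene list relative to its 3-month mean, on a log2 axis, for 9 immune and blood lists. Grey points are 3 months, orange points 21-month replicates 1 and 4 and blue points replicates 2 and 3. All old libraries are above the young ones for the B and plasma cell, macrophage, MHC class I, MHC class II, interferon, Cd209 and red blood cell lists, while the T cell sum of replicate 4 lies within the young range. The granulocyte and mast cell sums overlap between the ages.

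Cdkn1a and Cdkn2a, inhibitors of the cell cycle, were not called: Cdkn1a was at 16.5, 18.1, 16.1 and 16.9 CPM in young and 16.1, 26.1, 19.1 and 13.5 CPM in old ductules (edgeR, adjusted p = 0.639), and Cdkn2a at or under 0.421 CPM in every library. Of 29 senescence and stress genes 4 were called higher and none lower. Gdf15, a stress hormone, had 2.59, 2.37, 2.16 and 3.66 CPM at 3 months and 5.51, 7.58, 8.85 and 5.16 CPM at 21 months (log2 fold change 1.34 ± 0.24; edgeR, adjusted p = 0.0148, highest 0.0575). Gpx3, a secreted glutathione peroxidase, had 2100.1, 2398, 1657 and 2169 CPM in young and 3158, 2939, 3881 and 3696 CPM in old ductules (log2 fold change 0.72 ± 0.14; edgeR, adjusted p = 0.0198, highest 0.0715). The antioxidant enzyme gene Gclc and the small heat shock gene Hspb1 were the others.

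Transcripts of the mitochondrial genome split the old libraries. Of 12, 3 were called lower. mt-Nd4, a subunit of complex I, had 783, 1029, 755 and 1237 CPM at 3 months and 606, 419, 412 and 416 CPM at 21 months (log2 fold change -1.04 ± 0.19; edgeR, adjusted p = 0.0146, highest 0.0522), and mt-Nd2 281, 422, 281 and 475 CPM in young and 265, 130.3, 144 and 176 CPM in old ductules (log2 fold change -1.03 ± 0.24; edgeR, adjusted p = 0.0337, highest 0.115). mt-Nd1 was at 565, 793, 499.7 and 789 CPM in young and 804, 267, 261 and 549 CPM in old ductules (edgeR, adjusted p = 0.397), and mt-Co1 at 5520.4, 6157, 5549 and 6985 CPM in young and 6978, 3596, 3569 and 5631 CPM in old ductules (edgeR, adjusted p = 0.436), in both cases low only in replicates 2 and 3. Genes of this small genome overlap or abut, so single values are uncertain.

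Ribosomal and small RNA genes were called higher in 3 of 12 cases and lower in 1. Gm42418 had a log2 fold change of 3.12 ± 0.51 (edgeR, adjusted p = 0.0102, highest 0.0489). Lars2, a leucine tRNA synthetase gene whose counts often follow ribosomal RNA, had 113, 144, 81.5 and 186 CPM in young and 757, 206, 433 and 471 CPM in old ductules (log2 fold change 1.83 ± 0.36; edgeR, adjusted p = 0.0178, highest 0.0666), and the Y RNA gene Rny3 11.2, 8.62, 10.4 and 14.5 CPM in young and 6.81, 3.08, 3.37 and 7.42 CPM in old ductules (log2 fold change -1.14 ± 0.30; edgeR, adjusted p = 0.0447, highest 0.146). Gm26917 was at 22826, 22510.4, 20472 and 21659.8 CPM in young and 21217, 37372, 46642 and 33078 CPM in old ductules (edgeR, adjusted p = 0.0837). Among the largest rises relative to the other ducts were 3 genes annotated as microRNAs, Gm24187, Gm24270 and Gm23935, with Gm24187 at 0.301, 0.607, 0.324 and 0.413 CPM in young and 23.2, 2.28, 6.81 and 22.04 CPM in old ductules. It was highest in replicates 1 and 4, the libraries with the most ribosomal RNA.

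Some of the largest falls in the table were in genes outside the lists. B3galt2, a sugar transferase gene, had 9.82, 10.4, 10.1 and 19.3 CPM at 3 months and 2.05, 2.53, 0.773 and 0.645 CPM at 21 months (log2 fold change -3.01 ± 0.41; edgeR, adjusted p = 0.00631, highest 0.0274). Sgpp2, a phosphatase of sphingosine phosphate, had 2.59, 3.16, 3.56 and 3.96 CPM in young and 0.324, 0.370, 0.351 and 0.860 CPM in old ductules (log2 fold change -2.83 ± 0.34; edgeR, adjusted p = 0.00465, highest 0.0246). Pnpla3, a lipase of fat and liver, had 21.9, 30.9, 21.5 and 23.9 CPM in young and 2.59, 8.81, 1.69 and 1.29 CPM in old ductules (log2 fold change -2.70 ± 0.47; edgeR, adjusted p = 0.0132, highest 0.0498). Every old library was below every young one in these genes. Hmga2, a chromatin protein of growing tissue, had 2.77, 3.28, 3.89 and 3.19 CPM in young and 0.324, 0.616, 0.211 and 0.860 CPM in old ductules (log2 fold change -2.71 ± 0.37; edgeR, adjusted p = 0.00638, highest 0.0274). Neil3, a DNA repair enzyme of dividing cells, had 1.87, 0.971, 1.84 and 1.18 CPM in young and 0.108, 0.246, 0.211 and 0.430 CPM in old ductules (log2 fold change -2.53 ± 0.44; edgeR, adjusted p = 0.0128, highest 0.0518). Grin2b and Snap91, best known from neurons, had log2 fold changes of -2.55 ± 0.42 (edgeR, adjusted p = 0.0102, highest 0.0421) and -2.80 ± 0.53 (edgeR, adjusted p = 0.0162, highest 0.0637). The uncharacterised genes Gm37310 and A530053G22Rik fell by 2.81 and 3.95 on the log2 scale, from at most 2.60 CPM. B3galt2, Sgpp2 and Hmga2 each overlap a gene on the other strand, and Pnpla3 one on its own strand.

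Whether these changes were particular to the ductules was tested as the age effect there minus the mean age effect of the initial segment, caput, corpus, cauda and vas deferens. The same mice gave all regions, and the fit treats the libraries as independent. Of 36977 genes, 490 (1.33%) had a larger (more positive) age effect in the efferent ductules and 762 (2.06%) a smaller (more negative) one. Each other duct was also fitted alone. Of all genes, the vas deferens had 11.4% called higher and 8.47% lower, the caput 3.09 and 5.05%, the initial segment 3.35 and 3.01%, the corpus 1.499 and 1.47% and the cauda 0.06996 and 0.0583%. Counts of members called in each duct are to be read against these shares.

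Among the genes whose age effect differed were Cftr, 2 of 26 macrophage genes and 1 of 8 granulocyte and mast cell genes. In the B cell list 2 of 26 genes had a larger age effect, in the T cell and MHC class II lists none had, and in the list of MHC class I and antigen processing 3 of 16 had a smaller one. The difference was -0.79 ± 0.22 on the log2 scale for Cftr (edgeR, adjusted p = 0.0271), whose log2 fold changes elsewhere were -0.18 (initial segment), 0.39 (caput), -0.21 (corpus), 0.16 (cauda) and -0.42 (vas deferens). For Mcidas it was -1.85 ± 0.48 (adjusted p = 0.0183) and for Cubn -1.54 ± 0.42 (adjusted p = 0.0283). Gpnmb rose more in the ductules by 1.98 ± 0.46 (adjusted p = 0.00893), with log2 fold changes elsewhere of 0.73 (initial segment), 0.61 (caput), 0.22 (corpus), -1.63 (cauda) and 1.72 (vas deferens). C1qc, Tpsb2 and Bst2 did as well, by 1.02 ± 0.30, 1.67 ± 0.42 and 0.98 ± 0.26 (adjusted p = 0.0394, 0.0174 and 0.0205), and C6 fell more, by -1.94 ± 0.39 (adjusted p = 0.0019). Without old replicates 2 and 3 each of these differences kept an adjusted p under 0.05 except that of Cubn, at 0.172. For Foxj1 the difference was -0.42 ± 0.41 (adjusted p = 0.794), and for Lrp2 -0.47 ± 0.33 (adjusted p = 0.563).

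The difference was -3.79 ± 0.49 for B3galt2 (edgeR, adjusted p = 2.15e-06), whose log2 fold changes elsewhere were 1.99 (initial segment), 0.95 (caput), -0.52 (corpus), 0.74 (cauda) and 0.58 (vas deferens). For Sgpp2 it was -3.59 ± 0.45 (adjusted p = 1.35e-06), with log2 fold changes elsewhere of -0.18 (initial segment), 0.54 (caput), 0.40 (corpus), 0.22 (cauda) and 2.41 (vas deferens). Atp6v0d2 had a difference of 4.11 ± 0.52 (adjusted p = 1.35e-06), with log2 fold changes elsewhere of -0.08 (initial segment), 0.01 (caput), -0.67 (corpus), -1.33 (cauda) and 0.01 (vas deferens). Hoxd9, at 0.70 ± 0.17 (adjusted p = 0.0144), was past the threshold over all libraries but not without old replicates 2 and 3, at 0.4.

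Of 18 smooth muscle genes, 6 had a more positive age effect than the mean of the other ducts and none a more negative one. The median log2 fold change of the list was 0.23 in the ductules and 0.23 in the vas deferens, where 7 were called higher and 1 lower, and ran from -0.58 to -0.36 in the other 4 ducts. The differences were 0.71 ± 0.17 for Acta2, 0.81 ± 0.20 for Des and 0.74 ± 0.21 for Cnn1 (edgeR, adjusted p = 0.0122, 0.0137 and 0.033). For Col16a1, Col8a2, Efemp2 and Pi16 they were 0.88 ± 0.20, 0.70 ± 0.21, 0.77 ± 0.21 and 0.87 ± 0.22 (adjusted p = 0.00884, 0.0496, 0.0301 and 0.016), of which Col8a2 and Pi16 were not called without old replicates 2 and 3 (adjusted p = 0.194 and 0.0668). Of 35 collagen genes, 5 had a more positive age effect in the ductules by this test and none a more negative one. The list median was -0.19 in the ductules and ran from -1.11 to -0.46 in the other 5 ducts. Collagens were called lower for 21 of 35 in both initial segment and caput, 20 in the corpus, 17 of 34 in the vas deferens and 0 in the cauda by edgeR (27 at an unadjusted p under 0.05), and Col3a1 itself showed no difference past the threshold (0.17 ± 0.38, adjusted p = 1).

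The lower proliferation genes numbered 13 in the ductules, 5 in the initial segment, 3 each in caput, corpus and vas deferens, and 0 in the cauda by edgeR (7 at an unadjusted p under 0.05). Only 2 of the 28 had a smaller age effect in the ductules by the test of the difference, and for the other 26 the difference did not pass the test. B cell and plasma cell genes called higher numbered 7 of 22 in the initial segment, 2 of 23 in the caput, 13 of 26 in the corpus, and of 26 each 24 in the vas deferens but 3 in the cauda. The difference for Ighm was 0.71 ± 0.53 (adjusted p = 0.61), and for Cd209f it was 0.85 ± 0.38 (adjusted p = 0.227).

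**Figure D5:**
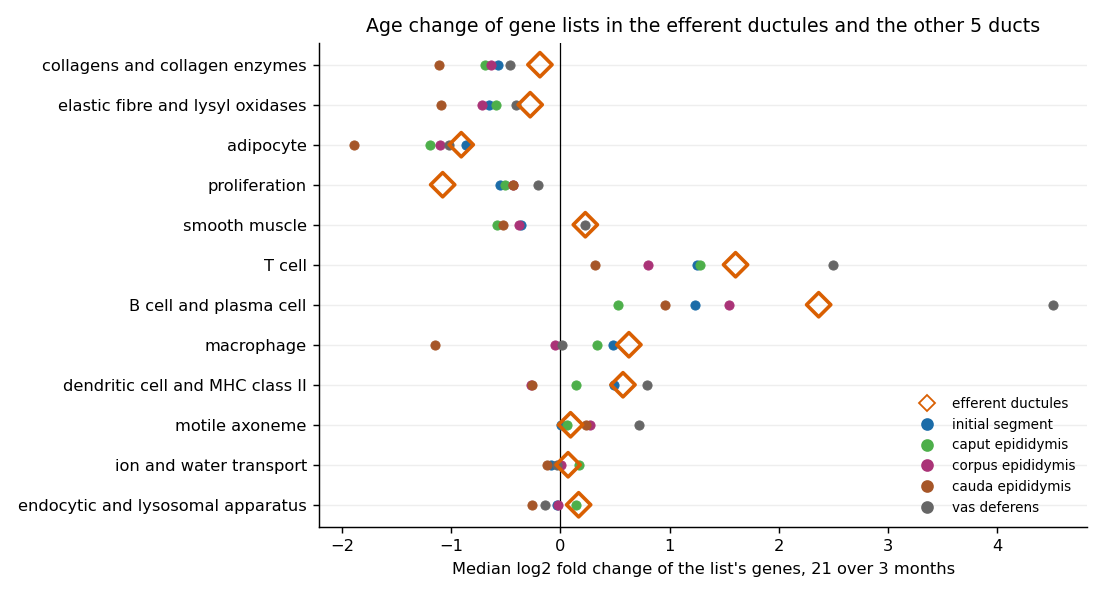
Points give the median log2 fold change of 21 over 3 months of the genes of 12 lists in the efferent ductules (open diamonds) and in the other 5 ducts (filled circles), on a linear axis. The efferent ductules have the lowest median for proliferation genes, at -1.08, and the vas deferens the highest for T cell and B cell genes.

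The 566 genes at least 4 times higher there at 3 months than in each other region, with a mean of at least 1 CPM, had a median log2 fold change of -0.02, with 43 called higher and 53 lower, where 4.00 and 2.98% of all genes were. These were chosen with the young libraries, so the counts describe and test nothing. Dcdc2a, the most abundant, had 855, 926, 852 and 1024 CPM at 3 months and 861, 802, 705 and 815 CPM at 21 months. Celsr1, a planar polarity receptor, had 787, 793, 724 and 744 CPM in young and 508, 984, 1144 and 529 CPM in old ductules, and Plxnb1, a semaphorin receptor, 499, 529, 494 and 481 CPM in young and 243, 581, 580.1 and 279 CPM in old ductules. Both were low in replicates 1 and 4 and high in replicates 2 and 3. These 3 genes were named after their values were seen.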

How the data were processed

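The authors isolated total RNA, made stranded ribosomal RNA-depleted libraries and sequenced them paired-end. They deposited whole-number counts per gene for 56 libraries, made with cutadapt, HISAT2 and HTSeq on mm10 (GRCm38) per the processing notes. Versions, annotation release and strand setting are not given in the sources used here. Symbols and positions came from GENCODE M21 and matched 53274 of 53379 genes.

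The 8 efferent ductule libraries were fitted in edgeR 4.0.16 (R 4.3.3, limma 3.58.1) with TMM scaling and the quasi-likelihood test, on genes with at least 10 counts in total, with Benjamini-Hochberg adjustment. All 56 libraries entered the fit that compared ducts. DESeq2 1.42.0, other scalings and filters, the replicate block, the initial segment share as a covariate and left-out libraries were alternatives. The age fit and the fit that compared ducts were also run on simulated counts with known changes. Those counts lacked the pairs of old libraries and the length trend, so they cannot test how these affect the calls. The labels name no mouse for a library, so p-values measure the spread between libraries. Depth is given with the results, and counting error is within that spread.

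Members and gene lists were chosen with earlier results of these data known. Genes were named as preset genes of each list, as the 2 called genes of each list and direction with the greatest change, as the 10 per direction over the table and the 5 per direction against the other ducts without overlap between ages, each with at least 1 CPM in the higher age, and as genes the study names for these regions. The minimum of 1 CPM for efferent ductule genes was added after the data were seen, as were the length offset and the fits without replicates 1 and 4 or without the 7 ribosomal and small RNA genes. Some genes that these rules name are not reported here.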

Additional observations from a re-analysis of the deposited data

Results flagged for a closer look

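Of 383 groups of 4 values tested, 29 held a library apart from the other 3 by Dixon's criterion, where chance gives about 5%. Young replicate 3 was high in initial segment transcripts, at 0.806% of their initial segment level, and in germ cell genes, with a sum of 366 CPM, Prm1 at 31.0 CPM and Ldhc at 36.4 CPM. The same library was low in the summed transport genes, at 5469 CPM, and the summed smooth muscle genes, at 1826 CPM, and high in Pecam1, at 45.8 CPM. Old replicate 1 was high in the summed macrophage genes at 1216 CPM, interferon genes at 279 CPM and skeletal muscle genes at 38.5 CPM. It was also high in Col3a1 at 301 CPM, Cd209b at 6.27 CPM, Ccl8 at 23.9 CPM, Ifit3 at 11.7 CPM, mt-Nd4 at 606 CPM and Igkv6-15 at 3.24 CPM. Young replicate 1 was high in Lcn5, at 2.71 CPM, Gpx5, at 9.09 CPM and Cd34, at 109 CPM. Young replicate 4 was high in A530053G22Rik at 2.60 CPM, B3galt2 at 19.3 CPM and Grin2b at 3.19 CPM, and low in Ghrhr at 22.97 CPM. Young replicate 2 was high in Sox9, at 283 CPM. Among the old libraries, replicate 2 was high in Igkv19-93 at 26.9 CPM and Ighv1-9 at 16.7 CPM, replicate 3 in Slc9a3 at 292 CPM, and replicate 4 in Alas2 at 5.16 CPM and Ptgds at 204 CPM.

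The age effect differed between the efferent ductules and the mean of the other 5 ducts for 39 of the named genes (edgeR, interaction term). Differences that kept an adjusted p under 0.05 without old replicates 2 and 3 are given first, on the log2 scale. They were positive for Gm24187 (4.59), Atp6v0d2 (4.11), Gm24270 (3.64), Gm23935 (3.38), Gm42418 (3.17), Gpnmb (1.98), Tpsb2 (1.67), C1qc (1.02), Tppp3 (0.99), Bst2 (0.98), Col16a1 (0.88), Des (0.81), Efemp2 (0.77), Cnn1 (0.74), Acta2 (0.71) and Npc2 (0.57). They were negative for B3galt2 (-3.79), Sgpp2 (-3.59), Gm37310 (-3.00), Gm10825 (-2.92), Snap91 (-2.91), C6 (-1.94), Mcidas (-1.85), mt-Nd4 (-1.27) and Cftr (-0.79).

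The other differences were not called without old replicates 2 and 3. Positive ones were those of Lcn8 (10.72), Adam28 (9.79), Rnase10 (9.08), Defb48 (7.55), Lcn6 (6.53), Gpx5 (6.20) and Klrb1c (4.40), all initial segment or caput transcripts or high only with them, and of Acta1 (1.25), Pi16 (0.87), Hoxd9 (0.70) and Col8a2 (0.70). Negative ones were those of Neil3 (-2.03), Rny3 (-1.62) and Cubn (-1.54). Fitted values of genes near 0 counts at 3 months depend on the prior count and are no bounds.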

How the results depend on the processing

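Counts of higher and lower calls, 1039 and 774 in the fit reported, were 2104 and 1453 with DESeq2's Wald test, 405 and 4881 with the library size alone, 3327 and 3418 without old replicates 2 and 3, and 3844 and 3281 without old replicates 1 and 4. With the initial segment share as a covariate they were 3007 and 3310, and with an unadjusted p under 0.05 and 1.5-fold 1734 and 1597. One fit of all 56 libraries gave 1946 lower calls. Leaving out 1 library gave 187 to 1205 higher and 117 to 952 lower calls. Against the other ducts, 490 larger and 762 smaller age effects became 185 and 2824 with the library size alone and 865 and 1958 without old replicates 2 and 3, 967 larger ones with filterByExpr, and 245 to 519 and 239 to 893 when 1 library was left out. The median of the efferent ductule genes, -0.02, was -0.36 with the library size alone, -0.12 without old replicates 2 and 3, -0.13 with the covariate, -0.10 with all 56 libraries, and -0.0551 to -0.0158 when 1 library was left out.

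Of 116 named genes called, 92 stayed called with the library size alone, 114 of 115 with DESeq2, 107 of 110 without old replicates 2 and 3, 115 without old replicates 1 and 4, 99 with the length offset and 88 in the fit of all 56 libraries. The last lost Foxj1, Odf3b, Zmynd10, Slc6a19, Slc9a3r1, Lrp2, Ctsd, Col8a2, Col16a1, Cnn1, Apln, Lpl, Hbb-bs, Hbb-bt, Cd68, Cd74, Itgax, Irf7, Cfp, Gpx3, Lars2, Rny3, Lck, Ptgds, Dnaic2, Tppp3, Ccdc40 and Hexa. Leaving out a young library lost the calls of 54 to 79 of the 116, and an old library those of 12 to 24. Among named genes called in either of the fits compared, directions reversed for Crisp1 (-2.37) and Klrb1c (-0.80) without old replicates 2 and 3, and for Sox9 (0.41) without old replicates 1 and 4. Over all settings, 75 more sign changes were of named genes called in neither fit. The cause of these shifts was not tested.

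The replicate numbers did not pair the samples: same-numbered libraries' deviations from their group means correlated at -0.0851, 0.00758, -0.0661 and -0.00154, and not every library correlated best with its own number. With the replicate block 400 genes were called higher and 235 lower, 79 of the 116 named genes stayed called, and against the other ducts 467 age effects were larger and 707 smaller. At 11125279 to 16121722 counts per library, differences of genes under about 1 CPM rest on few reads.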
